A study of Rattus norvegicus with 12 samples.

Results

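The cytochrome P450 enzymes of the Cyp3a subfamily were examined together with PXR and CAR, the nuclear receptors encoded by Nr1i2 and Nr1i3, in cultured rat hepatocytes. Members were chosen by name: every array probe assigned to Nr1i2, to Nr1i3 or to any gene whose symbol begins with Cyp3a. This gave 7 of the 35548 gene names on the array and 8 of its 41012 probes: 1 probe each for Cyp3a2, Cyp3a18, Cyp3a23-3a1, Cyp3a9, Cyp3a62 and Nr1i2, and 2 for Nr1i3. All 8 passed the filter on dim probes, which asks for all 3 arrays of some group to be well above background, the 2 Nr1i3 probes only through the dexamethasone groups, where they are high. The array's own names for several are older: Cyp3a2 is listed as Cyp3a11, Cyp3a9 as Cyp3a13 and Cyp3a23-3a1 as Cyp3a3, and each was renamed through the RefSeq transcript it was designed on.

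Hepatocytes of Sprague-Dawley rats, 11 weeks old, were plated in serum, held without serum for a further day and then exposed for 6 h either to dexamethasone, a synthetic glucocorticoid, or to the ethanol vehicle. The 12 samples formed 4 groups of 3: female dexamethasone, female vehicle, male dexamethasone and male vehicle. The dose was 100 nM (the labels write "nm") and the vehicle was 0.01% ethanol. The sex of a sample is that of its title, since a separate field of the labels reads male for all 12. The arrays ran the way of the titles: Obp3, a male-specific secreted protein, was above background on all 6 male arrays and on 0 of 6 female arrays, and Cyp2c12, a female-predominant P450, was higher in females by 2.36 ± 0.44 (log2, SE) in dexamethasone (limma, adjusted p = 0.0192) and by 2.63 ± 0.44 in vehicle (adjusted p = 0.00473). The Cyp2c12 call in dexamethasone was lost without male replicate 1 or 2 or female replicate 2 or 3 (0.0566 to 0.0898). The remaining sex marker on the array, Cyp2c11, was lower in female vehicle by 2.32 (limma, adjusted p = 0.0429). That call was lost without 4 of the arrays (0.0957 to 0.146), and Cyp2c11 was not called in dexamethasone. Nothing states that replicates came from separate animals, so a p-value below reflects only how far these 12 samples scatter, and that scatter may be technical.

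PXR and CAR pair with the retinoid X receptor and switch on genes that clear drugs, steroids and bile acids from the liver. Cyp3a enzymes are the classical targets of PXR and oxidise a large share of lipophilic drugs as well as steroid hormones. Dexamethasone is known to act on this system by more than 1 route: through the glucocorticoid receptor it raises the receptor genes themselves, and at concentrations well above those that occupy the glucocorticoid receptor it is a ligand of rodent PXR. In adult rat liver Cyp3a2 and Cyp3a18 are known as male-predominant forms and Cyp3a9 as a female-predominant one, while Cyp3a23-3a1 is the form best known for induction.

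The probes are oligonucleotides of 60 bases. Their positions, from the files on rat build rn3, lie on chromosome 12 for Cyp3a18 (chr12:9117107-9117166), Cyp3a2 (chr12:9547208-9547267), Cyp3a23-3a1 (chr12:9596938-9596997) and Cyp3a9 (chr12:17193062-17193121). Nr1i2 lies at chr11:64333649-64333708, and the files give no rn3 position for Cyp3a62. Exons and UTRs at these positions are not given because no annotation of rn3 was used here. The Nr1i3 probes overlap on the transcript, so they are not independent measurements of the gene. They are printed to show this, with the 31 bases they share in capitals:
Nr1i3 A_43_P12344 (chr13:87295925-87296075, plus strand): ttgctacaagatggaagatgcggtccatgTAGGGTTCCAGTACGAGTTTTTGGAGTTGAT
Nr1i3 A_44_P316002 (chr13:87296045-87296104, plus strand): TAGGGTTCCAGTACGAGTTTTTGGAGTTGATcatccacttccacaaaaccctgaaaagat
Among the Cyp3a probes the closest pair was Cyp3a18 and Cyp3a62, with 40 identical bases in 48 aligned columns (83.3%). Every other pair of Cyp3a probes aligned over 41 columns or fewer. Cross-hybridisation was not tested.

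Levels below are log2 signals relative to the 75th percentile of the same array, so a level of 0 is a probe as bright as that percentile, and they compare arrays for 1 probe, not 1 probe with another. The arrays lay on 3 slides, and these overlap with the groups: slide 3 carried all of female dexamethasone with female vehicle replicate 3, slide 2 the remaining female vehicle arrays with male dexamethasone 2 and 3, and slide 1 all of male vehicle with male dexamethasone 1. Probes well above background made up 45.8% to 55.65% on the male vehicle arrays, 66.51% on the remaining array of slide 1 and 72.38% to 80.39% on the other 8. The median SD between replicates was 0.16 in female dexamethasone, 0.19 in female vehicle, 0.25 in male dexamethasone and 0.39 in male vehicle. Of 6 known glucocorticoid-induced genes, 5 rose in each sex, among them Fkbp5 by 2.84 ± 0.18 in females and 2.93 ± 0.18 in males (log2, SE). All 10 hepatocyte markers were above background on every array. So were 13 Kupffer cell markers, which mark liver macrophages. In bulk RNA, fewer cells of a type and less RNA per cell cannot be told apart.

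The receptors were higher with dexamethasone in every same-numbered pair of arrays. The share of all probes for which this was so was not counted. Nr1i2 differed 2.26-fold in females and 1.57-fold in males. The Nr1i3 probe A_44_P316002 differed 6.81-fold in females, 4.22-fold without female vehicle replicate 1, and at least 1.37-fold in males. None of these passed the main test, which compares group means without pairing. With replicate number as a block, used because same-numbered arrays deviated together, Nr1i2 and this Nr1i3 probe passed in both sexes. That fit called 6.46% of all probes in females and 15.8% in males. The male test of this probe is set against vehicle signals not well above background. The other Nr1i3 probe, A_43_P12344, passed with the block in females (limma, adjusted p = 0.0287) but not in males (0.0848). Because Nr1i3 entered through the groups where it is high, its calls are a description, and the same block was also fitted to all 41012 probes without the filter, an alternative added after the data had been seen. There limma gave adjusted p = 0.0239 in females and 0.0181 in males for Nr1i2, and 0.0166 in females and 0.016 in males for the Nr1i3 probe A_44_P316002. The female call of A_43_P12344 was lost there. In males this was not a stricter test, since with the filter the block gave higher adjusted p values (0.0264 for Nr1i2 and 0.0277 for A_44_P316002, limma). The share of all probes called in that fit is not reported here, so no support is drawn from it for the male calls.

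Nr1i2 encodes PXR, the receptor that senses foreign compounds and steroids. Its level was 2.80, 2.87 and 3.17 in female dexamethasone and 1.54, 1.765 and 2.005 in female vehicle, so the female groups did not overlap, as was so for 33.4% of all probes. It was 2.32, 3.36 and 2.86 in male dexamethasone and 1.48, 2.97 and 2.11 in male vehicle, where replicate 2 of the vehicle group was above replicates 1 and 3 of the treated group (25.5% of all probes did not overlap in males). The same-numbered pairs differed by 1.10 to 1.25 in females and by 0.39 to 0.83 in males. The main limma fit gave 1.17 ± 0.36 in females (SE, n = 3 each, adjusted p = 0.104) and 0.66 ± 0.36 in males (adjusted p = 0.266). With the replicate block, limma gave the same differences with an SE of 0.14, and adjusted p = 0.00885 in females and 0.0264 in males. The female call was lost when both female arrays of 1 replicate number were left out, whichever the number (adjusted p 0.0544 to 0.1), and the male call without the male arrays of replicate 1 (0.06) or 3 (0.0635).

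Nr1i3 encodes CAR, the receptor best known for control of Cyp2b genes. On the A_43_P12344 probe it was -4.31, -3.93 and -4.05 in female dexamethasone, all above background, and -7.35, -5.20 and -5.52 in female vehicle, where replicate 1 was not well above background. It was -3.93, -1.40 and -3.51 in male dexamethasone and -5.36, -2.27 and -4.36 in male vehicle, where only replicate 2 was well above background. The groups of females did not overlap, as was so for 33.4% of all probes, and those of males did. With the block, limma gave 1.93 ± 0.34 in females (3.8-fold, adjusted p = 0.0287) and 1.05 ± 0.34 in males (adjusted p = 0.0848); without it, adjusted p was 0.28 in females and 0.464 in males. The female call with the block was lost without the filter (0.0542) and without the pair of any 1 number (0.0589 to 0.108), and the fold without female vehicle replicate 1 was 2.4.

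The A_44_P316002 probe of Nr1i3 was -4.62, -4.12 and -3.79 in female dexamethasone and -8.32, -6.48 and -6.02 in female vehicle, of which the last 2 were above background. It was -4.31, -1.505 and -3.90 in male dexamethasone, while no male vehicle array was well above background, which is why the male fold is a bound. With the block, the female difference was 2.77 ± 0.29 (adjusted p = 0.00646), and adjusted p was 0.0277 in males; without it, limma gave adjusted p = 0.113 in females and 0.349 in males. In the filtered fit, leaving out the pair of any 1 number kept the female call (adjusted p 0.0201 to 0.0382) and lost the male one (0.0634 to 0.111). Since the probe passed that filter through the dexamethasone groups, these calls are a description. The male ones also rest on vehicle signals not well above background. Both probes had their highest level of any array in male dexamethasone replicate 2.

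The receptor differences also have to be read against the slides. Within slide 1 the male difference of Nr1i2 was 0.13 (adjusted p = 0.926) and within slide 3 the female one was 0.94 (adjusted p = 0.552). For Nr1i3 the within-slide differences were 0.07 and 0.27 in males and 1.42 and 1.84 in females, none called. Each of these rests on a single array of 1 group, and that array was replicate 1 of male dexamethasone or replicate 3 of female vehicle. The same-numbered pairs that shared a slide differed for Nr1i2 by 1.16 in females (replicate 3) and 0.83 in males (replicate 1).

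Markers of cell types differed with treatment beside the receptors. With the replicate block, as for the receptors, the counts differ from those of the fit without it, and both are given. The mean level of the 10 hepatocyte markers per array was 6.22 to 6.33 in female dexamethasone and 5.505 to 5.68 in female vehicle, and 6.24 to 6.50 in male dexamethasone and 5.94 to 6.25 in male vehicle. One of them was called in each sex, Cps1, the first enzyme of the urea cycle, higher by 2.50 ± 0.56 in females (adjusted p = 0.0358) and by 2.43 ± 0.56 in males (adjusted p = 0.0227, limma). These calls were lost without female dexamethasone replicate 2 or 3 or female vehicle replicate 1 or 3 (0.0777 to 0.138), and without male dexamethasone replicate 2 or 3 or male vehicle replicate 1 (0.0544 to 0.0753). With the block Apoa1, an apolipoprotein, was also called higher in females (adjusted p = 0.0164). Of 10 stellate cell and fibroblast markers, 1 was lower in females, Pdgfrb by 1.13, a call lost without any 1 of the 6 female arrays (adjusted p 0.0635 to 0.186), and 0 were called in males (4 at an unadjusted p under 0.05, limma). With the block 1 was lower in each sex, Col1a1 in females and Reln in males. Of 13 Kupffer cell markers limma called 0 in either sex, also at an unadjusted p under 0.05, and with the block 1 was higher in both sexes, C1qb (adjusted p = 0.028 in females and 0.0213 in males). The 10 endothelial markers held 1 higher in females, Vwf, lost without any 1 of the 6 arrays (0.0545 to 0.145), and 1 higher in males, Lyve1, lost without 4 of 6 (0.0507 to 0.0709); with the block they held 1 higher and 1 lower in females and 1 higher and 2 lower in males. The 10 cholangiocyte markers held 1 higher in females, Cldn4, lost without any 1 of the 6 arrays (0.0626 to 0.199), and in males 1 higher, Cldn4, and 1 lower, Slc10a2. Slc10a2 was lost without 4 male arrays (0.0512 to 0.0884). With the block the cholangiocyte list held 1 higher and 2 lower in females and 3 higher and 1 lower in males. Markers that neither group had above background were not counted. Their part in the receptor differences was not tested.

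**Figure D1:**
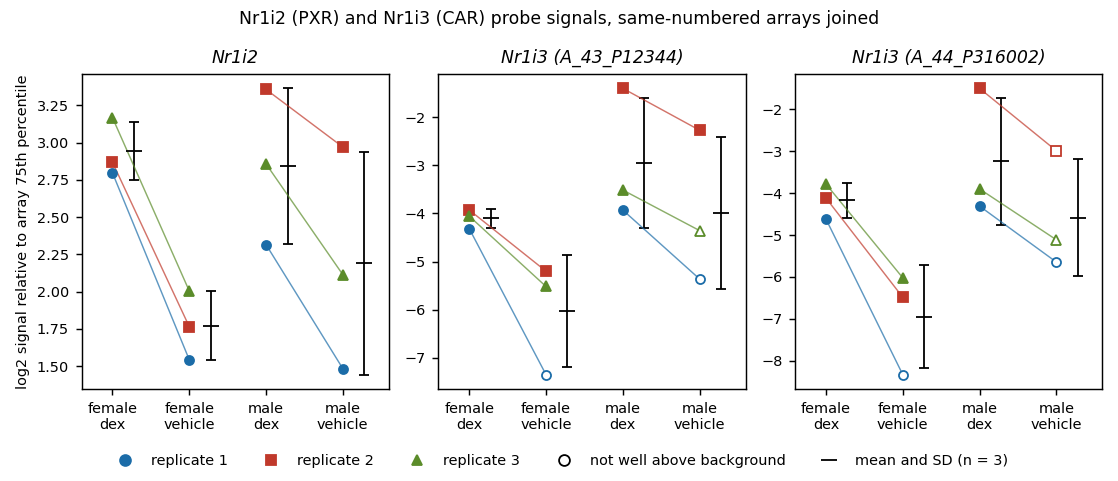
Log2 signal relative to the array's 75th percentile (vertical axis) of Nr1i2 and both Nr1i3 probes on each array, by group, with lines joining same-numbered arrays of 1 sex and bars for the mean and SD of 3 arrays. All 6 lines run downward from dexamethasone to vehicle on each of the 3 panels, while open symbols, not well above background, take up all 3 male vehicle arrays of the A_44_P316002 probe.

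No Cyp3a enzyme was called higher with dexamethasone in either sex. The nearest was Cyp3a18 in females, at 0.69 with the replicate block (95% interval 0.30 to 1.07, adjusted p = 0.0587). The counts of members called by the main fit were 0 of 8 in females, against 3.82% of all probes, and 0 of 8 in males, against 10.2% of all probes. At an unadjusted p under 0.05 these counts were 3 in females (Nr1i2 and both Nr1i3 probes) and 0 in males. With the replicate block, 4 of 8 were called in females, 3 higher and 1 lower (6.46% of all probes), and 2 of 8 in males, both higher (15.8%). Nothing is read from these counts, since the Nr1i3 probes among them passed the filter through the dexamethasone groups. The only Cyp3a probe among them was Cyp3a2, which fell in females by 0.80 ± 0.14 (1.74-fold, adjusted p = 0.0254). That call was lost without the female pair of any 1 replicate number (0.0947 to 0.213) and without the filter (0.0563).

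Cyp3a2 was -7.02, -2.62 and -3.88 in female dexamethasone, where replicate 1 was not well above background, against -5.95, -1.96 and -3.22 in female vehicle. In males it was -0.32, 1.38 and 1.845 in dexamethasone and -0.37, 1.49 and 1.86 in vehicle. Each female pair was lower with dexamethasone, by 0.66 to 1.07, whereas the male pairs differed by -0.11 to 0.05. Without the block the female difference was -0.80 ± 1.22 (adjusted p = 0.866), since the spread between replicates, an SD of 2.26 in female dexamethasone and 2.04 in female vehicle, was larger than the difference. Its sign was not stable without the block: it turned to 0.46 without female dexamethasone replicate 1, to 0.08 without female vehicle replicate 2 and to 0.52 with array weights, none of them called.

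Cyp3a23-3a1, the inducible form, was -1.53, 0.02 and -0.54 in female dexamethasone and -1.64, 0.29 and -1.03 in female vehicle. It was 0.54, 2.03 and 1.95 in male dexamethasone and -0.29, 1.499 and 2.03 in male vehicle. The groups overlapped in both sexes. With the block, the difference was 0.11 in females (95% interval -0.42 to 0.64, adjusted p = 0.845) and 0.43 in males (-0.10 to 0.95, adjusted p = 0.224).

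Of the remaining forms, Cyp3a18 differed by 0.69 in females, with all 3 pairs higher, and by 0.12 in males (95% interval with the block -0.27 to 0.51, adjusted p = 0.633). Cyp3a9 differed by 0.30 in females (-0.19 to 0.80) and 0.21 in males (-0.28 to 0.71). Cyp3a62 differed by 0.17 in females (-0.23 to 0.57) and 0.07 in males (-0.33 to 0.48). Dexamethasone arrays were higher in 5 of 6 pairs for Cyp3a18 and Cyp3a9, in 4 of 6 for Cyp3a23-3a1 and Cyp3a62, and in 1 of 6 for Cyp3a2. Such pairs were not counted over all probes. The sign of the male difference changed under the slide block for Cyp3a18 (-1.13), Cyp3a23-3a1 (-0.54) and Cyp3a62 (-0.81), and that of the female difference for Cyp3a9 (-0.13). Each of these rests on a single array, male dexamethasone replicate 1 or female vehicle replicate 3. That male array was the lowest of its group for these 3 probes. The same-numbered pair on 1 slide differed by -0.04 for Cyp3a18, 0.825 for Cyp3a23-3a1 and 0.525 for Cyp3a62 in males, and by 0.53 for Cyp3a9 in females.

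**Figure D2:**
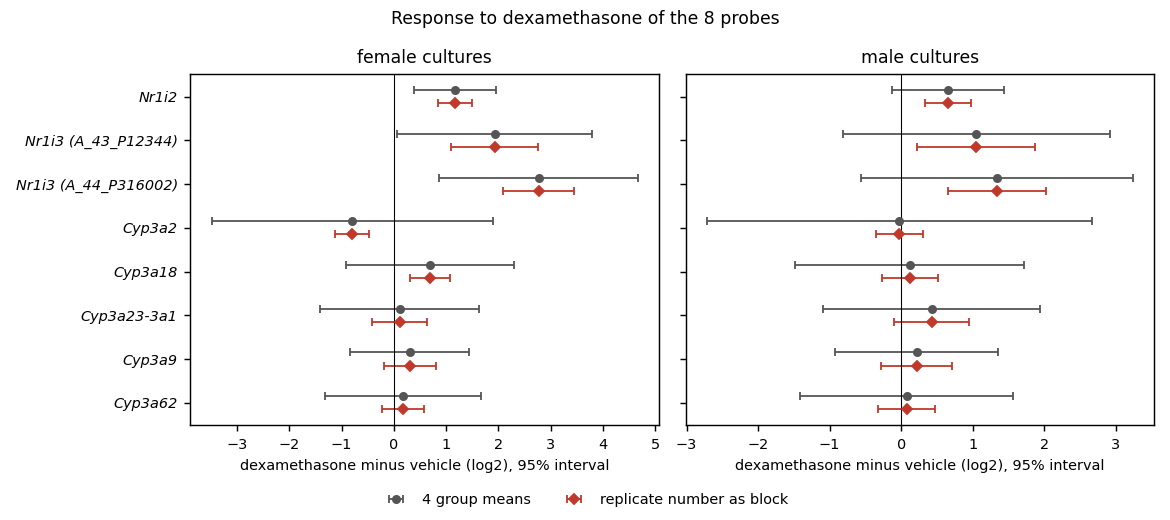
Dexamethasone minus vehicle in log2 units (horizontal axis) with 95% intervals for each of the 8 probes, females on the left and males on the right, from the fit of 4 group means (circles) and from the fit with replicate number as a block (diamonds). With the block the intervals of Nr1i2 and both Nr1i3 probes lie above 0 in both sexes, while that of Cyp3a2 lies below 0 in females, -1.12 to -0.47, and spans 0 in males. The male value of A_44_P316002 is set against vehicle arrays not well above background.

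The response was not shown to differ between the sexes for any member. In the fit without the block, the interaction, female response minus male response, called 0 of 8 members by limma, also at an unadjusted p under 0.05, against 0.107% of all probes. For Nr1i2 it was 0.52 ± 0.50 (95% interval -0.59 to 1.63, adjusted p = 0.778) and for Cyp3a2 -0.77 ± 1.73 (-4.58 to 3.03, adjusted p = 0.921). These intervals ignore the pairing: with the block the SE of each sex's response was 0.14 for both genes. The block called 0 members too, and its count at an unadjusted p is not reported here. Over all alternatives the lowest adjusted p of the interaction was 0.266 for Nr1i2 and 0.157 for Cyp3a2 (limma). No interaction is given for Nr1i3 A_44_P316002, whose male response is only a bound. When the response was averaged over the sexes, a contrast added after the data had been seen, limma gave 0.91 ± 0.25 for Nr1i2 (1.88-fold, adjusted p = 0.0364), with 13.2% of all probes called. The same contrast gave 1.49 ± 0.60 for the Nr1i3 probe A_43_P12344 (adjusted p = 0.13). With the block added (19.6% of all probes called), A_43_P12344 was called (adjusted p = 0.00969, limma), a description since it entered through the dexamethasone groups. Cyp3a2 was called too, at -0.41 ± 0.10 (adjusted p = 0.0304), and Cyp3a18 missed the threshold at 0.40 ± 0.11 (0.0526).

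The 250 bases upstream of the start site were searched for the elements these receptors bind, since Cyp3a23-3a1 is regarded as a direct PXR target. PXR with its partner is known to bind the rat Cyp3a promoters at a direct repeat of the hexamer AGTTCA spaced by 3 bases. Since the repeat is known from these promoters, a match in them is no independent finding. The motif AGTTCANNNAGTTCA was looked for on both strands of the RefSeq promoter table (build GRCr8), which held all 7 member genes. It occurred in 2 of 33356 distinct windows (0.006%), and both were members: Cyp3a2, first base 131 bases before the start site, and Cyp3a23-3a1, 144 bases before it. They are shown with that repeat in capitals, which reads as its reverse complement on the gene's strand:
Cyp3a2 (chr12:14343858-14344107, minus strand): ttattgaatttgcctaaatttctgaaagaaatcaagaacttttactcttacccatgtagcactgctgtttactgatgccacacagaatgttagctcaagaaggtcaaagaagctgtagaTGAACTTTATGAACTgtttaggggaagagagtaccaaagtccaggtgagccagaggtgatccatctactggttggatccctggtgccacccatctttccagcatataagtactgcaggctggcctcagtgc
Cyp3a23-3a1 (chr12:14398804-14399053, minus strand): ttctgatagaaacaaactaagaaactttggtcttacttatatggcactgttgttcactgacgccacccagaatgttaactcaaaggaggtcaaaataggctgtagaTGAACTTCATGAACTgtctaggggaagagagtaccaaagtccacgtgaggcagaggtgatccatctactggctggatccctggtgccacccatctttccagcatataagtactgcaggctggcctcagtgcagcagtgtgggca
The windows were 79.2% identical over 265 aligned columns, against 48.7% to 64.6% for the other pairs of Cyp3a genes. The lone hexamer AGTTCA was in 12.2% of all windows and in those of 6 of the 7 members, all but Nr1i3. The hexamer AGGTCA, in 14.1% of all windows, was in those of Cyp3a2 and Cyp3a23-3a1 alone among the members. A palindromic glucocorticoid receptor motif, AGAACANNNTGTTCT, was in 0.012% of all windows and in none of the members'. The same held for the direct repeat of AGTTCA spaced by 4 bases, also in 0.012% of all windows.

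Females expressed less Cyp3a2 and Cyp3a18 than males. Cyp3a2 was 44.6-fold lower in female than in male dexamethasone cultures and 26.1-fold lower in female than in male vehicle cultures. Cyp3a18 was 6.02-fold lower in dexamethasone, which did not pass the main test, and 8.9-fold lower in vehicle, which passed. These folds rest on single arrays: without female replicate 1, Cyp3a2 was 18.7-fold lower in dexamethasone and differed by -3.59 log2 units in vehicle. All 5 Cyp3a probes had a lower female mean in both treatments. These signs were the same under every alternative, the 2 other scalings among them.

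Cyp3a2 differed by -5.48 ± 1.22 in dexamethasone (adjusted p = 0.0394) and by -4.71 ± 1.22 in vehicle (adjusted p = 0.029, limma). The levels given above place all 6 female arrays, at most -1.96, below all 6 male arrays, at least -0.37. The call in dexamethasone did not survive the loss of any 1 of its 6 arrays, with adjusted p between 0.0576 and 0.119 and differences from -6.42 (without female replicate 2) to -4.22 (without female replicate 1). That in vehicle was lost without female replicate 1 (0.101) or 3 (0.0626), or without male replicate 2 (0.0735) or 3 (0.0651), and the difference ranged from -5.58 (without female replicate 2) to -3.59 (without female replicate 1). With the slide as a block the differences were -6.86 in dexamethasone (adjusted p = 0.374) and -6.88 in vehicle (0.224).

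Cyp3a18 was -2.90, -1.97 and -2.002 in female dexamethasone and -0.95, 1.78 and 0.06 in male dexamethasone. It was -3.76, -2.28 and -2.89 in female vehicle and -0.91, 1.47 and -0.03 in male vehicle. No female array reached the lowest male array of its treatment. Arrays of the sexes did not overlap for 32.2% of all probes in dexamethasone and 31.3% in vehicle. The difference was -2.59 ± 0.73 in dexamethasone (adjusted p = 0.0856) and -3.15 ± 0.73 in vehicle (adjusted p = 0.0182, limma). Without male replicate 2 it was -1.85 in dexamethasone and -2.51 in vehicle, and without male replicate 1 it was -3.21 in dexamethasone. The call in vehicle was lost without female replicate 1 (adjusted p = 0.071) or 3 (0.0503) and without male replicate 2 (0.0532). With the slide as a block it was -5.07 (adjusted p = 0.119). Without male vehicle replicates 1 and 2, the arrays with the lowest share of probes above background, adjusted p was 0.0874 for Cyp3a18 and 0.0954 for Cyp3a2.

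**Figure D3:**
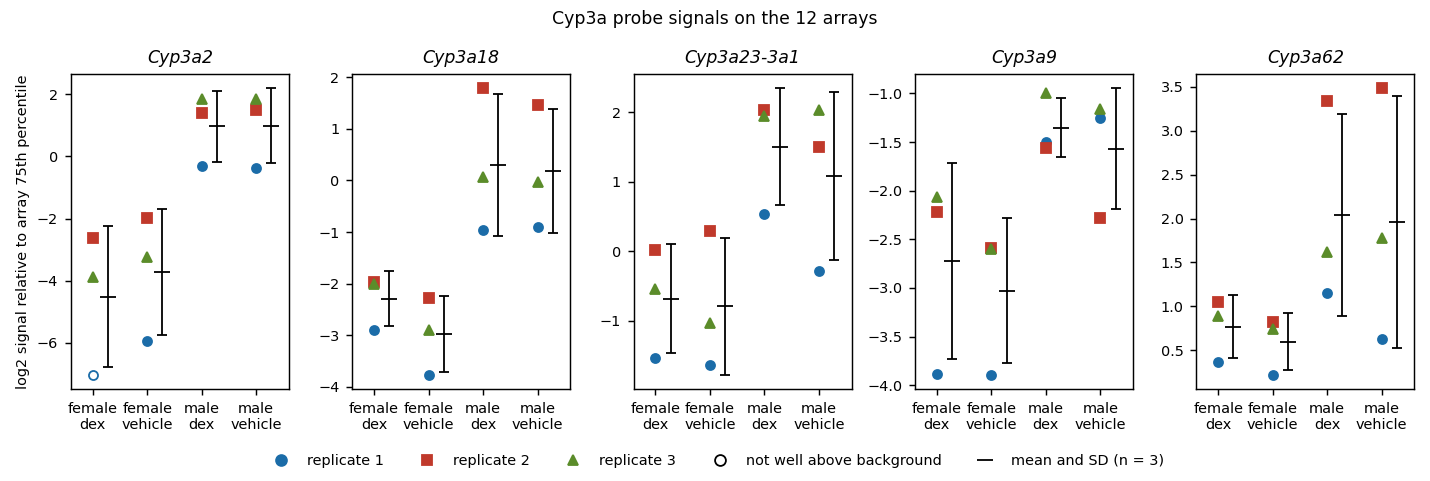
Log2 signal relative to the array's 75th percentile (vertical axis, a scale of its own per panel) of the 5 Cyp3a probes on each array, by group, with bars for the mean and SD of 3 arrays and an open symbol where the probe was not well above background. The female arrays of Cyp3a2 and Cyp3a18 lie below the male arrays in both treatments, and replicate 1 is the lowest of its group in all panels but that of Cyp3a9.

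The other 3 Cyp3a probes had lower female means without passing the test. Cyp3a23-3a1 differed by -2.19 in dexamethasone (95% interval -3.71 to -0.67, adjusted p = 0.118) and -1.88 in vehicle (adjusted p = 0.0945). Cyp3a9, whose levels were -3.88, -2.21 and -2.07 in female dexamethasone and -1.496, -1.56 and -1.0 in male dexamethasone, differed by -1.37 (-2.51 to -0.23, adjusted p = 0.183). In vehicle Cyp3a9 was -3.89, -2.59 and -2.60 in females and -1.26, -2.28 and -1.16 in males, a difference of -1.46 (adjusted p = 0.0834). Cyp3a62 was 0.36, 1.05 and 0.90 in female dexamethasone and 1.15, 3.34 and 1.62 in male dexamethasone (difference -1.27, adjusted p = 0.352). In vehicle it was 0.23, 0.83 and 0.74 in females and 0.63, 3.48 and 1.78 in males (-1.37, adjusted p = 0.202), so that male replicate 2 stood highest in both treatments.

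Same-numbered dexamethasone arrays of the sexes deviated together only weakly (r = 0.17 to 0.21, against 0.02 to 0.11 in vehicle). Different-numbered arrays of the sexes were not compared. With replicate number as a block, 3 members were called in dexamethasone, all lower in females, against 5.63% of all probes. They were Cyp3a2 (adjusted p = 0.000966), Cyp3a18 (-2.59 ± 0.33, adjusted p = 0.00427) and Cyp3a23-3a1 (-2.19 ± 0.32, adjusted p = 0.00715). Without any 1 dexamethasone array, adjusted p in that fit was between 0.00262 and 0.0487 for these 3 probes. Without the block limma did not call Cyp3a18 (adjusted p = 0.0856) or Cyp3a23-3a1 (0.118), so their calls depend on that block. That fit gives each number 1 term shared by both sexes and both treatments. Same-numbered arrays of the treatments deviated together more strongly than those of the sexes, so its SEs may be too small for a comparison of the sexes. Its calls are a description, and no support is drawn from them.

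Over the members, 1 of 8 was called in dexamethasone, lower in females, against 2.99% of all probes called and 1.77% called lower, and 2 of 8 in vehicle, both lower in females, against 14.0% called and 7.73% called lower. Arrays of the sexes did not overlap for all 5 Cyp3a probes in dexamethasone, against 32.2% of all probes, and for Cyp3a2, Cyp3a18 and Cyp3a9 in vehicle, against 31.3%, leaving aside the Nr1i3 probe A_44_P316002, not above background in male vehicle.

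The main fit did not call the receptors between the sexes. In vehicle the Nr1i3 probe A_43_P12344 passed under 2 of 17 alternatives, though only 1 male array was well above background there. Nr1i2 differed by 0.10 in dexamethasone (95% interval -0.68 to 0.89, adjusted p = 0.923) and by -0.42 in vehicle (-1.20 to 0.37, adjusted p = 0.465). The Nr1i3 probes differed by -1.15 and -0.94 in dexamethasone (adjusted p = 0.515 and 0.622), and no direction is given for vehicle, where the male arrays mostly did not rise above background.

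**Figure D4:**
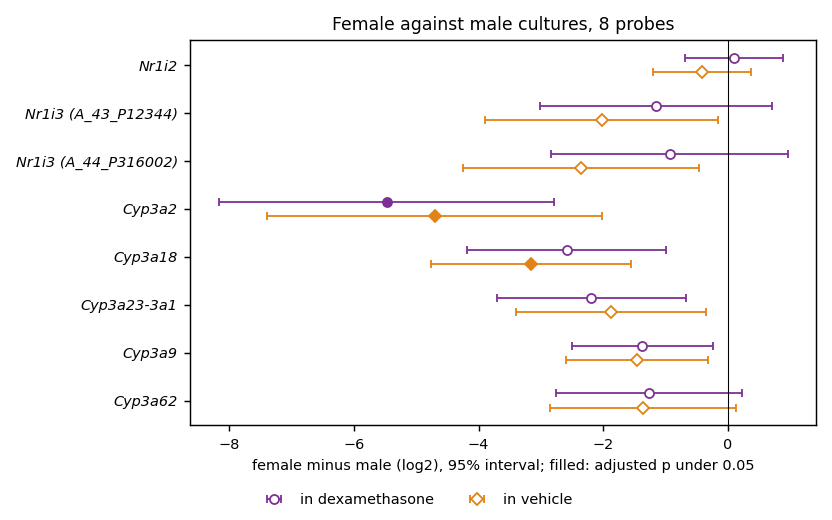
Female minus male in log2 units (horizontal axis) with 95% intervals for the 8 probes in dexamethasone (circles) and in vehicle (diamonds), filled where the adjusted p was under 0.05. Cyp3a2 lies farthest from 0 in both treatments, -5.48 and -4.71, and the intervals of Nr1i2 span 0.

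Markers of other cell types also differed between the sexes. Of 10 stellate cell and fibroblast markers, 2 were higher in female than in male dexamethasone cultures and 5 were higher in female than in male vehicle cultures, none lower. Their mean level per array was -0.92 to -0.58 in female dexamethasone and -2.36 to -1.53 in male dexamethasone, and -0.36 to 0.22 in female vehicle and -2.40 to -1.69 in male vehicle. Of 13 Kupffer cell markers, limma called 0 in dexamethasone (4 at an unadjusted p under 0.05) and 2 were higher in female vehicle, Csf1r by 1.85 ± 0.37 and Msr1 by 1.64 ± 0.40. Of 10 hepatocyte markers, 0 were called in dexamethasone (1 unadjusted) and 2 were lower in female vehicle, Ambp by 0.60 and Apoc3 by 0.95 log2 units. The calls of Msr1 (adjusted p 0.0516 to 0.0812), Ambp (0.0539 to 0.0838) and Apoc3 (0.0532 and 0.0795) were lost without female vehicle replicate 2, those of Msr1 and Ambp also without female replicate 1, that of Ambp without female replicate 3, and those of Msr1 and Apoc3 without male replicate 1. The 10 endothelial markers held 2 higher and 1 lower in female vehicle, and the 10 cholangiocyte markers 0 higher and 2 lower. In dexamethasone the replicate block called 5 Kupffer cell markers higher in females (Cd163, Csf1r, Lyz2, Msr1 and Aif1), Apoc3 lower, 2 stellate cell markers and 1 endothelial marker higher and 1 cholangiocyte marker lower. The part of any of these in the Cyp3a differences was not tested.

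Most members also followed the replicate number. Replicate 1 was the lowest of its group in all 4 groups for Cyp3a2, Cyp3a18, Cyp3a23-3a1, Cyp3a62, Nr1i2 and both Nr1i3 probes. Replicate 2 was the highest in all 4 groups for Cyp3a18, Cyp3a62 and the Nr1i3 probe A_43_P12344. Cyp3a9 had its lowest array at replicate 1 in both female groups and at replicate 2 in both male groups. The mean of the Kupffer cell markers had the same order as Cyp3a18: for replicates 1, 2 and 3 it was 1.45, 2.66 and 2.15 in female dexamethasone, 1.36, 2.47 and 1.93 in female vehicle, 1.08, 1.80 and 1.11 in male dexamethasone and 0.71, 1.69 and 1.06 in male vehicle. The mean of the hepatocyte markers was highest at replicate 2 in female dexamethasone and in both male groups (6.33, 6.50 and 6.25) but lowest there in female vehicle (5.505). What the numbers stand for is not stated in the labels.

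The receptors' partners were mostly not called. Of 20 partners and cofactors of PXR and CAR, 1 was higher with dexamethasone in females and 3 were lower in males, and the list's median difference was 0.17 in females, against -0.02 over all probes, and 0.27 in males, against -0.06. Ppargc1a, a coactivator of fasting metabolism, was at least 2.58-fold higher in female dexamethasone (-5.50, -5.21 and -5.94) than in female vehicle, where no array was well above background (adjusted p = 0.0178, limma). It passed the filter only through the dexamethasone groups, and without the filter adjusted p was 0.0302. That call was lost without female dexamethasone replicate 1 (0.0726) or 2 (0.0809) and without female vehicle replicate 1 (0.0677) or 3 (0.0722). In males the lower genes with the smallest p were Ppp1r16a, a membrane-bound phosphatase subunit known in mouse to act on CAR, by -0.69 ± 0.17 (adjusted p = 0.0287), and Rxrg, by -1.01 ± 0.25 (adjusted p = 0.0313). The Rxrg call was lost without male dexamethasone replicate 1 (0.0861) or 3 (0.0891) or male vehicle replicate 2 (0.0598), and that of Ppp1r16a without male dexamethasone 2 (0.101) or 3 (0.0822) or male vehicle 1 (0.0627) or 2 (0.0541). With the replicate block, 3 partners were higher and 0 lower in females, and 6 were higher and 3 lower in males.

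Among the central partners, Rxra, the retinoid X receptor with which PXR and CAR pair, was -0.88, -0.86 and -0.90 in female dexamethasone and -1.79, -1.66 and -1.69 in female vehicle. That is 1.78-fold, with adjusted p = 0.107 and, with the replicate block, 0.022. In males Rxra differed by 0.42 (adjusted p = 0.318). Nr3c1, the glucocorticoid receptor, differed by 0.27 in females (adjusted p = 0.763) and by 0.67 in males (adjusted p = 0.167, with the block 0.028). Hnf4a, a hepatocyte factor that acts on the Cyp3a genes, differed by 0.25 in females (adjusted p = 0.776) and by 0.87 in males (0.0687, with the block 0.0148). Between the sexes, the corepressor Ncor1 was lower in female than in male vehicle cultures by 0.97 ± 0.17 (adjusted p = 0.00595, limma). Hsp90aa1, a chaperone of the cytosolic receptor complexes, was lower there by 0.86 ± 0.19 (adjusted p = 0.0153), a call lost without female vehicle replicate 3 (0.056). Dnajc7, a co-chaperone that holds CAR in the cytosol, was higher by 0.75 ± 0.18 (adjusted p = 0.0211), a call lost without any 1 of the female arrays (0.0577 to 0.0666). In all, limma called 0 partners in dexamethasone (5 at an unadjusted p under 0.05), and 1 was higher and 3 lower in female than in male vehicle cultures, Ppp1r16a being the remaining one, lost without 5 of 6 arrays (0.0881 to 0.139). With the replicate block Ncor1 was called lower in dexamethasone too.

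Of 25 further PXR and CAR targets, 23 were on the array and 21 passed the filter on dim probes. With dexamethasone, limma called 0 in females (5 at an unadjusted p under 0.05) and 1 in males, and the median difference was 0.33 in females and 0.04 in males. The one called was Slco1a4, an uptake transporter of the sinusoidal membrane, lower in male dexamethasone (-0.62, -0.68 and -0.97) than in male vehicle (0.14, 0.34 and -0.09), by 0.88 ± 0.17 (1.84-fold, adjusted p = 0.00954). With the replicate block the counts were 3 higher and 0 lower in females, where the 3 were the export pump Abcc2, Slco1a1 and Gadd45b, and 3 higher and 2 lower in males.

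Several of these targets differed between the sexes in the direction opposite to Cyp3a2. In dexamethasone 3 were higher and 0 lower in females, 1 without female replicate 2, and 5 with the replicate block, which added Cyp2b3 and Cyp2c6v1. In vehicle 4 were higher and 1 lower, of which Cyp2c6v1 was lost without 5 of 6 arrays (0.0519 to 0.103) and Sult2a1 without any 1 of the female arrays (0.0677 to 0.0805). Cyp2c7, a female-predominant P450, was 0.11, 1.96 and 2.16 in female dexamethasone and -2.90, -2.84 and -2.64 in male dexamethasone (18.4-fold, adjusted p = 0.00593). In vehicle Cyp2c7 was 0.35, 2.14 and 1.78 in females and -5.10, -5.19 and -3.90 in males, 1 of the 3 above background there (difference 6.15 ± 0.59, adjusted p = 0.000361). Sult2a2, a sulfotransferase for steroids and bile acids, was 30.8-fold higher in female than in male dexamethasone cultures (adjusted p = 0.00942, 0.0514 without female replicate 2). It was at least 11.3-fold higher in female vehicle than in male vehicle, where no array was well above background (adjusted p = 0.00248). The 1 target that was lower in female vehicle, Aldh1a1, a retinal dehydrogenase, differed by -1.73 ± 0.47 (adjusted p = 0.0353) and lost the call without male replicate 2 (0.073) or any 1 of the female arrays (0.0717 to 0.114). Sult2a1 and Sult2a2 come from a family of close copies, and their probes may share signal.

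The electron supply of the P450 enzymes changed at 1 gene of 16. Por, the reductase that passes electrons from NADPH to every microsomal P450, was 4.21, 4.66 and 4.23 in female dexamethasone and 3.22, 3.36 and 3.20 in female vehicle. It was 4.33, 4.43 and 4.26 in male dexamethasone and 3.89, 3.56 and 3.76 in male vehicle. The groups overlapped in neither sex, against 33.4% of all probes without overlap in females and 25.5% in males. Por rose by 1.11 ± 0.16 in females (2.16-fold, adjusted p = 0.00515) and by 0.61 ± 0.16 in males (1.52-fold, adjusted p = 0.0406, limma). The male call was lost without any 1 of the male dexamethasone arrays (0.0759 to 0.122) and without male vehicle replicate 2 (0.0844) or 3 (0.052), and with the slide as a block Por differed by 1.17 in females (adjusted p = 0.0723) and 0.59 in males (0.268). Alas1, the rate-limiting enzyme of haem synthesis, differed by 0.76 in females (adjusted p = 0.432) and 0.58 in males (0.409). The list's median was 0.10 in females and -0.06 in males. Between the sexes 0 of the 16 were called in dexamethasone (3 at an unadjusted p under 0.05, limma), and 2 were lower in female vehicle, Cyb5r3 by 0.97 and Pgrmc1 by 0.72.

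With the slide as a block, limma called 0 of the 57 genes of these 3 lists in any of the 5 comparisons. At an unadjusted p under 0.05 that fit gave 5 in females and 6 in males for the response, 0 for the interaction, and 4 in dexamethasone and 14 in vehicle between the sexes. The difference kept its sign under every alternative for each gene called in them, except Sult2a1 in vehicle, where it did so under 16 of 17.

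**Figure D5:**
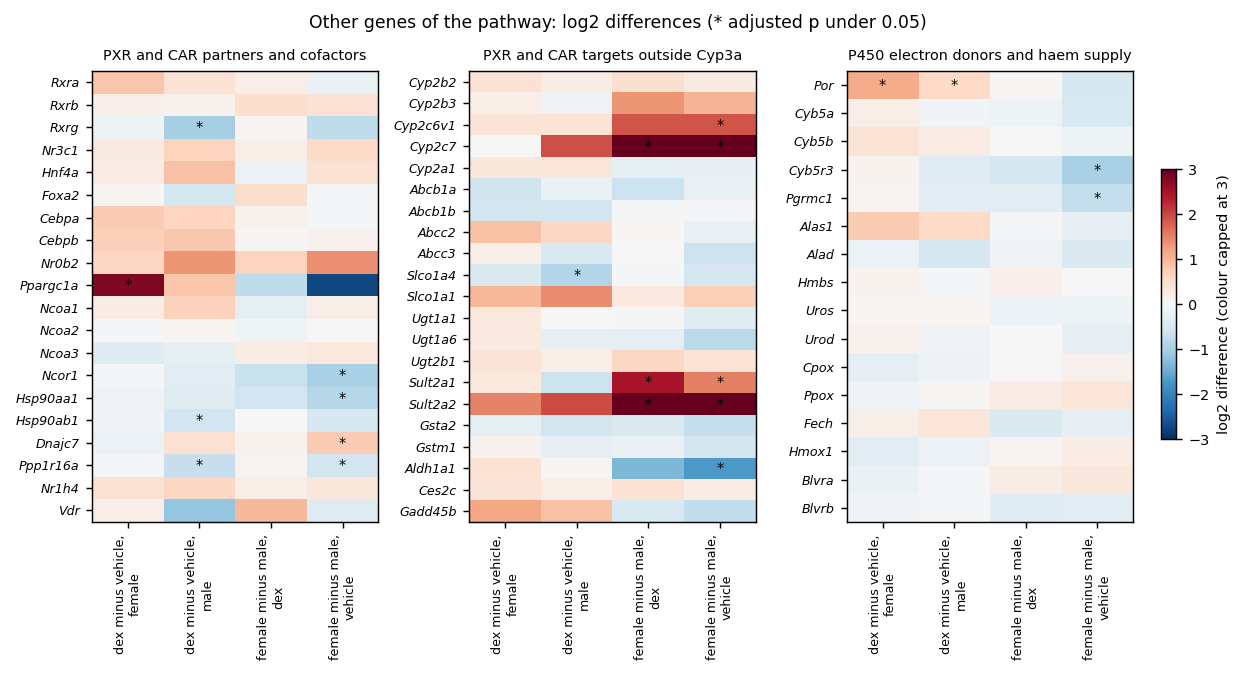
Log2 differences, shown as colour capped at 3, for the 20 partners and cofactors, the 21 targets outside Cyp3a and the 16 electron donors and haem enzymes, in 4 comparisons (columns), with an asterisk where the adjusted p was under 0.05. Por is marked in both sexes for dexamethasone minus vehicle, and Ppargc1a carries no mark in vehicle between the sexes, where it was not above background on any array.

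The genes whose profile over the 12 arrays was most like each member's, by the root mean square difference of mean-centred log2 levels were taken from 8367 named genes. Nr1i2 was closest to the bile export pump Abcc2 (0.19), then Ngef (0.23) and Cebpb (0.24). Cyp3a62 was closest to Apob (0.18), Ldhd (0.30) and Gstt3 (0.30), and Cyp3a18 to Creb3l3 (0.53), Slc30a2 (0.55) and Sorl1 (0.72). For Nr1i3 these were Hao2 (0.44), Slc30a2 (0.59) and Cyp4a3 (0.61), for Cyp3a23-3a1 Rup2 (0.49), Apon (0.54) and Hrg (0.59), and for Cyp3a9 Hyou1, Plg and Ddit3 (0.45 to 0.48). The nearest to Cyp3a2 were Cyp2c13 (1.503), a male-specific P450, Sult1c3 (1.58) and Slc22a8 (1.66). The measure is not scaled to a gene's spread, so it does not compare closeness between members. The range over the arrays was 8.88 for Cyp3a2 and 1.875 for Nr1i2. The arrays compared share groups, slides and replicate numbers, so these are descriptions over 12 arrays.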

How the data were processed

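Per the file headers, the deposited signal of each spot is an intensity from Agilent Feature Extraction 9.5.3.1, background-subtracted within the array and not scaled between arrays. The authors' deposited value table holds the same intensity values (540216 of 540216 equal), linear and uncentred, with column medians of 44.74 to 111.6. Spots of a probe were averaged as log2 values and each array's 75th percentile was subtracted. A probe was kept if all 3 arrays of some group had it well above background (30969 of 41012). RefSeq names were found for 19934 probes. One model of 4 group means was fitted to 12 arrays with limma 3.58.1 (R 4.3.3), two-sided, Benjamini-Hochberg adjusted over all kept probes, threshold 0.05; the steps were tested on simulated data. Errors after a difference are SEs. A fold is a bound ("at least") where a group was nowhere well above background. Same-numbered arrays of the 2 treatments deviated together (r = 0.27 to 0.46 in males, 0.27 to 0.43 in females). Those of the 2 sexes in dexamethasone did so more weakly. The replicate block is printed in these comparisons where it changes a member's call or a list's count. Named genes were the members, up to 2 rises and 2 falls of smallest p per list and comparison, and a fixed set of key genes. Some genes of the lists and 1 probe sequence are not reported here. Members and lists were chosen with earlier results of these data known. Sequences came from the files and RefSeq (GRCr8), aligned with Biopython 1.88. Precision is limited by the number of arrays.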

Additional observations from a re-analysis of the deposited data

How the results depend on the processing

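The 3 arrays a group, the slide layout and the low signal of the male vehicle arrays limit these results: a probe had to be brighter to be measured on slide 1 than elsewhere. No alternative reversed a member's difference called in the main fit. Member calls in the main fit were 0 in females and 0 in males for the response, 0 for the interaction, 1 between the sexes in dexamethasone and 2 in vehicle. The replicate block gave 4, 2, 0, 3 and 5 in that order; in vehicle the numbers do not pair the sexes (r = 0.02 to 0.11), and the block called Kupffer cell markers there 5 higher and 1 lower. Leaving out pairs of arrays from the block was chosen after seeing the data. Array weights gave 3 members in females, 3 between the sexes in dexamethasone and 1 in vehicle. A fit of the compared groups alone gave 2 in females and 0 between the sexes in both treatments (4 in dexamethasone and 5 in vehicle at an unadjusted p under 0.05, limma). The slide as a block gave 0 everywhere (unadjusted, 2 between the sexes in dexamethasone, 5 in vehicle and 0 in the rest). Between the sexes, normexp background correction gave 5 members in vehicle, no filter gave 0 in dexamethasone (4 unadjusted), and the 5 members above background on all arrays gave 0 in dexamethasone, where Cyp3a2 is not among them, and 1 in vehicle. Leaving out 1 array gave 0 to 3 members in vehicle and 0 in the other comparisons; leaving out male vehicle replicates 1 and 2, chosen after seeing the data, gave 0 in vehicle. Using 1 probe a gene or the authors' value table changed no member count.

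Over all probes, the 1184 calls in females became 630 with quantile scaling, 576 on all-array probes, 309 with the slide as a block or within slide 3, 2000 with the replicate block, 2978 with these groups alone, 5715 with array weights and 354 to 1108 without 1 array. The 3160 in males became 12610 without the filter, 574 with the slide as a block, 573 within slide 1, 4899 with the replicate block, 333 with these groups alone, 1271 with array weights and 1409 to 4156 without 1 array. The 33 of the interaction became 0 with normexp (5172 at an unadjusted p under 0.05, limma), 320 with quantile scaling, 15 with the array median, 7427 without the filter, 4 on all-array probes, 4 with the slide as a block, 0 with the replicate block (5057 unadjusted), 227 with array weights, 303 without male vehicle 1 and 2, and 0 to 663 without 1 array. The 927 in dexamethasone became 604 without the filter, 36 with the slide as a block, 1743 with the replicate block, 5381 with array weights and 205 to 527 without 1 array. The 4330 in vehicle became 14100 with normexp, 14243 without the filter, 176 with the slide as a block, 1011 with these groups alone, 2606 with array weights and 1970 to 5273 without 1 array. Causes were not tested.

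Scaling moved the median of all probes: in the male response it was -0.06, with quantile scaling 0.05 and with the array median -0.18, in vehicle between the sexes -0.04, 0.10 and -0.08, and in the interaction 0.06, -0.06 and 0.11. The split of higher and lower calls was 1659 and 1501 in males, 2641 and 1288 with quantile scaling, 1236 and 2501 with the array median; 870 and 314 in females, 616 and 370 with the array median; 23 and 10 in the interaction, 39 and 281 with quantile scaling, 12 and 3 with the array median; and 1937 and 2393 in vehicle between the sexes, 3500 and 2001 with quantile scaling.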
